A study of Mus musculus with 483 samples.

Results

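Cluster 3 is a set of 67 single mouse cells, 13.9% of all cells of the series (exact Clopper-Pearson 95% interval 10.9 to 17.3%), and its members are all cells whose label places them in cluster 3 of the submitters' ICGS clustering, which sorted the cells into 7 clusters. All cells were taken from the AGM, the embryonic aorta together with the gonads and mesonephros around it, by flow cytometric sorting for CD31 and Kit on the surface and for absence of CD45. RNA of each cell was read by Smart-seq2, a full-length single-cell method that carries no molecular identifiers. The cells of the whole series fall into 2 groups, 239 labelled Ctrl and 244 labelled aDll4-treated, of which cluster 3 holds 31 and 36. Strain, genotype, embryonic age, dose and length of treatment are not stated in the labels, which leave aDll4 unexplained and name no embryo, litter or culture. The labels call every cell of the series a hematopoietic stem cell with the sorted surface pattern. Transcripts of the sorting gate were read as follows in cluster 3: Pecam1, which encodes CD31, stood at 10 CPM (reads of the gene per 1000000 reads of the cell) or more in 60 of 67 cells, Kit in 46, and Ptprc, which encodes CD45, in 1.

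Blood stem and progenitor cells of the embryo arise from hemogenic endothelium, endothelial cells of the aortic wall that switch on the transcription factor Runx1 and, under it, Gfi1, lose endothelial features and round up into clusters inside the vessel. Cells on this route carry transcripts of both lineages for a time. Notch signalling, with Dll4 as a main endothelial ligand and Hes and Hey genes as targets, sets arterial identity and takes part in this step.

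Values are read counts per gene and cell. Cluster 3 cells held between 142899 and 2870618 gene-assigned reads (median 669599), cluster 1 cells a median of 931920 and cluster 2 cells 835071, so cells were also compared after each was thinned at random to 123097 reads, the lowest total of any cell. The level of a gene in a set of cells is its reads summed over these cells per 1000000 of all their reads, with an exact Poisson 95% interval. These intervals, like those of shares of cells, cover counting error only, and reads copied by PCR are not independent molecules. Cells are not replicates, each treatment counts as 1 sample, and the clusters were built from these same cells, so nothing here was tested and no p-value stands beside any value. Differences between clusters describe what the cluster label holds. The titles carry library numbers in 2 separate ranges, called block 1 (354 cells) and block 2 (129 cells) from here on, which divide further into 6 runs of 96 numbers. Cluster 3 made up 9.32% of block 1 (33 cells, 6.50 to 12.8%) and 26.4% of block 2 (34 cells, 18.99 to 34.8%), a difference of 17.03 percentage points (Newcombe 95% interval 9.36 to 25.7). Main results are therefore also given within each block. What sets the blocks apart is not stated in the labels.

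The label of the set as endothelial was borne out by most of its cells, and Gfi1 was not a marker of the set as a whole. Cdh5 (VE-cadherin, the junction protein of endothelium, chromosome 8, 104101625 to 104144511, plus strand, mm10) was at 275 CPM over cluster 3 (270 to 280), against 385 CPM in cluster 1 and 338 CPM in cluster 2. Across the 67 cells it ran from 0 through a median of 166 to 1193 CPM, and 59 cells were at 10 CPM or more. Pecam1 (chromosome 11, 106654217 to 106750628 on the minus strand) stood at 580 CPM (573 to 586), with a median cell at 400 and the highest at 2460 CPM, against 1135 CPM in cluster 1 and 852 CPM in cluster 2. Both Cdh5 and Pecam1 reached 10 CPM in 56 of 67 cells (83.6%, 72.5 to 91.5%), and at least 1 of them in 63 (94.03%, 85.4 to 98.3%). In clusters 1 and 2 all 183 and all 145 cells had both. The 4 cells of cluster 3 with neither were all treated cells, 2 in each block. Gfi1 (chromosome 5, 107716657 to 107726036 on the minus strand), a repressor that silences endothelial genes in emerging blood cells, was at 10 CPM or more in 5 of 67 cells (7.46%, 2.47 to 16.6%), all of block 2, and its median cell had no read. It was at that level in 2 of 145 cluster 2 cells and in 0 of 183 cluster 1 cells, which allows a share of up to 1.64% by a limit of 3 cells of the total (Clopper-Pearson upper bound 1.996%).

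The description low-complexity held for many cells of the cluster and not for all. At equal depth a cluster 3 cell had between 1711 and 8846 genes with a read (median 4494), a cluster 1 cell between 3464 and 8408 (median 6261) and a cluster 2 cell between 2080 and 8835 (median 5945). The ranges overlapped, and the most complex of these cells belonged to cluster 3. The order was the same in both blocks, with cluster 3 at 5056 genes in block 1 against 6317.5 and 5971, and at 4433 in block 2 against 5866 and 5380.5. Of the 14905 genes measured, meaning those with a read in 5% or more of all cells in clusters 1 to 3, 80.3% were found in a smaller share of cluster 3 than of cluster 1 cells at equal depth (median difference -8.20 percentage points), and 79.4% against cluster 2 (-6.10 points). Counting a gene only from 5 reads up, the median of cluster 3 was 3001 genes.

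The mitochondrial share of reads of cluster 3 overlapped that of clusters 1 and 2 throughout, with a higher median in block 1 and a lower one in block 2. It ran from 1.74 to 27.8% in cluster 3 with a median of 6.98%, against medians of 7.98% and 8.66% in clusters 1 and 2, which hold a larger share of block 1 cells. Block by block the medians of clusters 1, 2 and 3 were 8.31, 8.86 and 9.48% in block 1 and 5.80, 5.67 and 5.52% in block 2. More than 20% mitochondrial reads were found in 8 cells of each cluster, which is 11.9% of cluster 3, 4.37% of cluster 1 and 5.52% of cluster 2. A median of 40.9% of the reads of a cluster 3 cell went to its 100 most abundant genes, against 38.4% and 39.4%, and ribosomal protein genes took 2.06% against 1.39% and 1.65%.

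**Figure D1:**
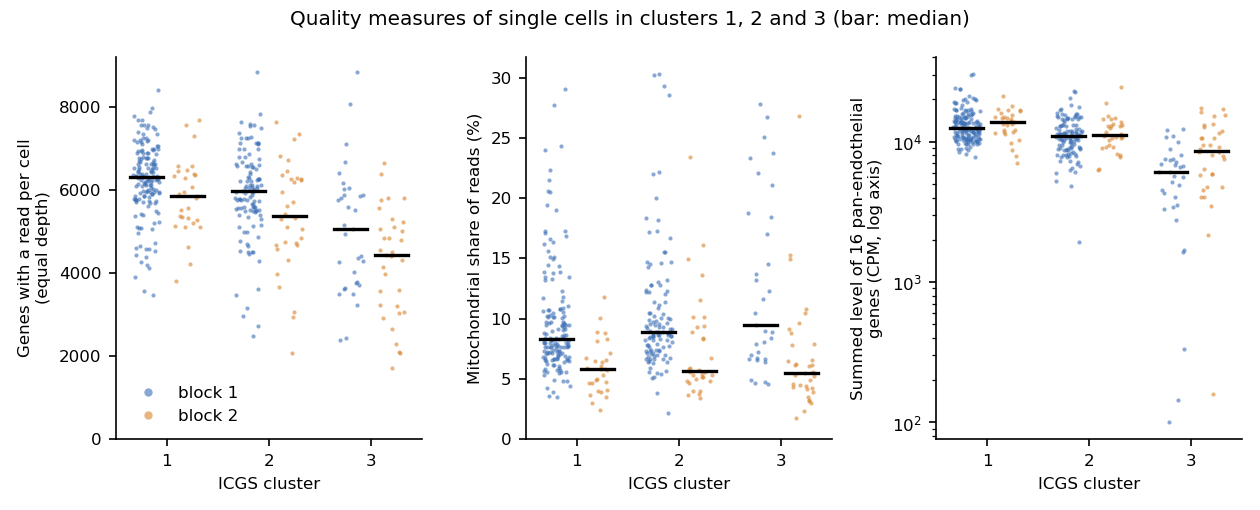
Each point is a cell of cluster 1, 2 or 3, split by block of library numbers, with bars at the medians: genes with a read after thinning every cell to 123097 reads (left), mitochondrial reads as a percentage of the reads of the cell (middle) and the summed CPM of 16 pan-endothelial genes on a log axis (right). Cluster 3 sits lower for genes (medians 5056 and 4433 in the blocks) and for endothelial transcripts, with a few cells far below the rest, while its mitochondrial share overlaps that of clusters 1 and 2.

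To ask how many cells were of low complexity, a limit was set in each block at the lowest 5% of the cells of clusters 1 and 2, which is 4401.5 genes in block 1 and 3667 in block 2. Below it lay 26 of 67 cluster 3 cells (38.8%, 27.1 to 51.5%), 14 of 33 in block 1 and 12 of 34 in block 2, against 3.83% of cluster 1 and 6.90% of cluster 2. Above the corresponding upper limit for mitochondrial reads lay 10 cells (14.9%, 7.40 to 25.7%), against 4.37% and 6.21%. Of these 10 cells, 7 were in block 1 and 3 in block 2. Only 7 cells passed both limits, so that 19 of the 26 gene-poor cells had an ordinary mitochondrial share. By these measures 38 of 67 cells (56.7%) were within the range of clusters 1 and 2, where 92.9% and 90.3% were. Lower endothelial transcript levels were not confined to gene-poor cells: 39 of 67 cells were under the corresponding limit for the summed pan-endothelial genes, and 24 of these 39 had enough genes.

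Genes of endothelial identity were lower in cluster 3 as a group. Of 16 pan-endothelial genes, 14 were lower than in cluster 1 with a median log2 ratio of summed CPM (1 CPM added) of -0.87, and 15 were lower than in cluster 2 with a median of -0.60, beside medians of 0.01 and 0.03 over all measured genes. A gene was called where it differed at least 2-fold. In these terms 5 of the 16 were called lower against cluster 1, where 12.6% of all measured genes were, and 2 against cluster 2, where 8.63% were. None of the 16 was called higher (background 7.74% and 5.92%). The median was -1.05 in block 1 and -0.89 in block 2 against cluster 1, and -0.81 and -0.55 against cluster 2, and below 0 in each of the 6 runs.

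Among the endothelial genes, Cldn5, a tight junction protein, was at 825 CPM in cluster 3 (817 to 833) against 1963 and 1495 CPM, with 59 of 67 cells at 10 CPM or more. Robo4, a guidance receptor of endothelium, was at 116 CPM (113 to 119) against 307 and 258 CPM, and only 33 of 67 cells reached 10 CPM, against 175 of 183 and 134 of 145. Robo4 was thus under 10 CPM in many cells that still had Cdh5. Emcn, the sialomucin endomucin, went the other way in the sum, at 1603 CPM against 1285 and 1428 CPM. Its mean log2(CPM + 1) was lower all the same, at 9.24 ± 2.67 (SD over 67 cells) against 10.12 ± 0.75 and 10.12 ± 1.14, and single cells ran up to 8123 CPM. Summed endothelial genes varied widely, from 101 to 17275 CPM (median 6943), against 7093 to 30162 CPM in cluster 1 (median 12631) and 1943 to 24478 CPM in cluster 2 (median 11098).

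**Figure D2:**
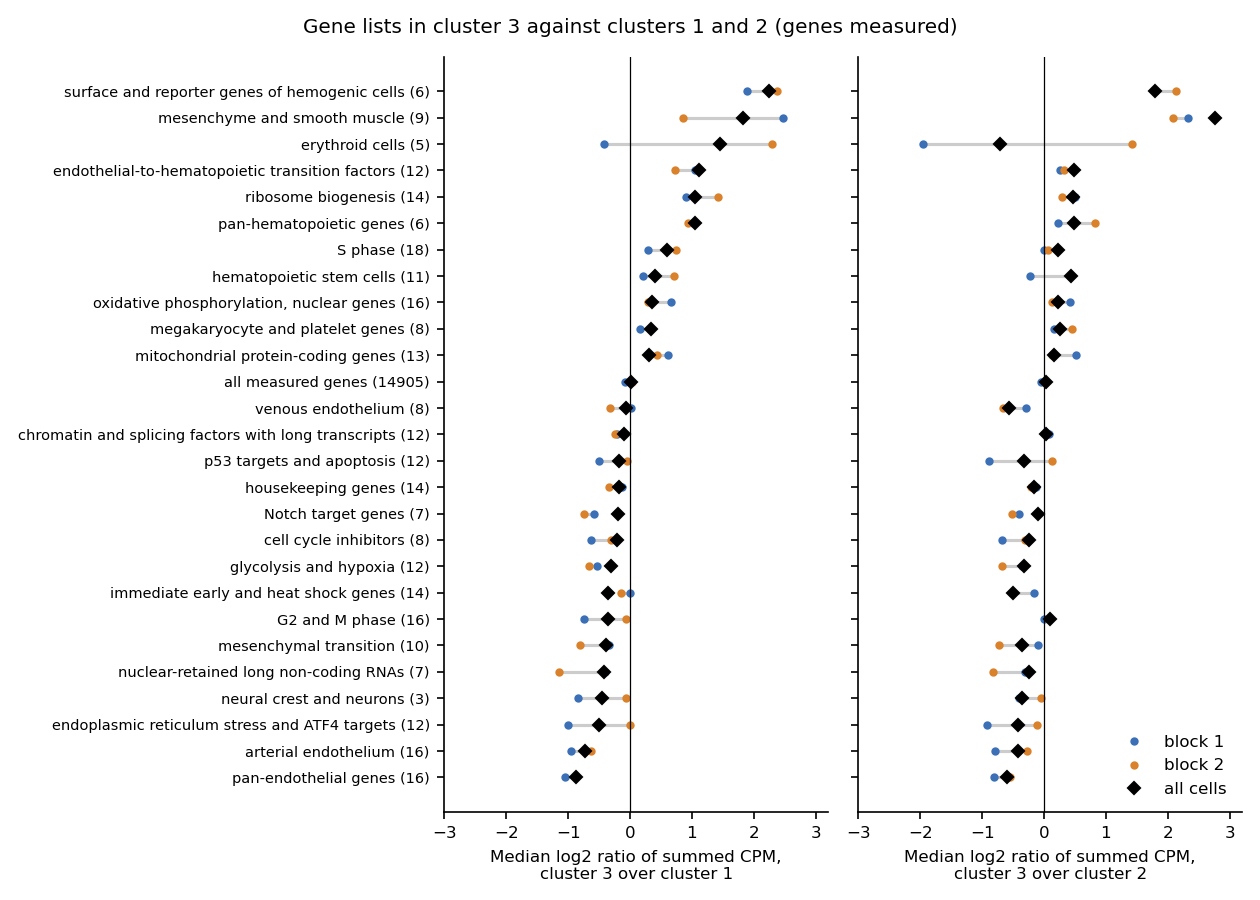
Median log2 ratio of summed CPM (1 CPM added) of cluster 3 to cluster 1 (left) and to cluster 2 (right), over all cells and within block 1 and block 2. Gene lists with at least 3 measured genes are shown, without the list of genes that lead clusters 1 and 2. Pan-endothelial genes (-0.87 and -0.60) lie below 0, and the hemogenic surface, mesenchymal and ribosome biogenesis lists above it.

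Genes that mark the neighbouring clusters were lower in cluster 3. Dll4 (chromosome 2, 119325784 to 119335962, plus strand), the Notch ligand, was at 53.7 CPM in cluster 3 (51.7 to 55.8) against 475 CPM in cluster 1 and 253 CPM in cluster 2, log2 ratios of -3.12 and -2.22. It reached 10 CPM in 18 of 67 cells, against 171 of 183 and 111 of 145. Igfbp3, a secreted binder of insulin-like growth factors, was at 183 CPM against 1725 and 875 CPM, with a median cell at 13.4 CPM and the highest at 1693. Aplnr, the apelin receptor typical of venous and sprouting endothelium, was at 428 CPM against 895 and 990 CPM, and Sox17, an arterial transcription factor, at 161 CPM against 283 and 355 CPM. All 4 of these genes reached 10 CPM in 6 of 67 cells (8.96%), against 73.8% of cluster 1 and 56.6% of cluster 2. None did in 5 cells of cluster 3, all treated, and in no cell of clusters 1 and 2 (up to 1.64% and 2.07% by the limit of 3 cells, or 1.996% and 2.51% by Clopper-Pearson). These genes had been read as leading the other clusters in earlier results, so their direction here describes the clusters and is no separate result. Dll4 overlaps Gm14207 on the opposite strand, as Runx1 does Gm26626, Gfi1 A430072P03Rik and Sox17 Gm37587. Since the library kit does not mark strand, reads from the overlaps cannot be told apart.

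Arterial genes were lower in the main (12 of 16 against cluster 1, median -0.72, and 11 of 16 against cluster 2, median -0.42) with opposite members. Called lower were 7 and 5 of the 16, beside 12.6% and 8.63% of all measured genes, and called higher 3 and 2, beside 7.74% and 5.92%. The connexin Gja5, an arterial gap junction protein, was at 100 CPM (97.5 to 103) against 9.23 and 23.2 CPM, but 54.9% of its reads came from 1 cell and only 10 of 67 cells reached 10 CPM. Its partner Gja4 was at 167 CPM against 64.9 and 106 CPM. Of 8 venous genes all 8 were lower than in cluster 2 (median -0.56) and 4 than in cluster 1 (-0.06). Notch targets were mixed, with 5 of 7 measured genes lower than in cluster 1 and 4 of 7 lower than in cluster 2 (medians -0.19 and -0.10): Hey1 was at 78.1 CPM against 198 and 210 CPM and Hes1 at 53.997 CPM against 91.6 and 84.1 CPM. Kit, the receptor used in the sort, was at 152 CPM against 380 and 217 CPM.

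Genes of the endothelial-to-hematopoietic passage were higher in cluster 3 in the sums, and these sums rested on few cells. Of 12 measured transition factors 9 were higher than in either cluster, with medians of 1.12 against cluster 1 and 0.49 against cluster 2. Against these clusters 6 and 4 of the 12 were called higher, beside 7.74% and 5.92% of all measured genes. Called lower was 1 of the 12 against each, beside 12.6% and 8.63%. The 6 measured surface and reporter genes of hemogenic cells were all called higher against both (medians 2.25 and 1.80). Over all measured genes 3.67% were called higher and 7% lower against both clusters. Runx1 (mm10 chromosome 16, 92601466 to 92826149 on the minus strand) stood at 37.98 CPM in cluster 3 (36.3 to 39.7) against 0.533 CPM in cluster 1 and 10.1 CPM in cluster 2. Its median cell had no read and its highest 515 CPM. Gfi1 was at 21.1 CPM (19.9 to 22.4) against 1.59 CPM in cluster 2 and, in cluster 1, a single read.

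Runx1 was at 10 CPM or more in 7 of 67 cells (10.4%, 4.30 to 20.3%), and Runx1 or Gfi1 in 9 (13.4%, 6.33 to 23.97%). In cluster 2 the share of cells with Runx1 at that level was the same within counting error, 15 of 145 (10.3%, 5.91 to 16.5%), and in cluster 1 it was 2 of 183 (1.09%). The 9 cells hold 21.4% of all reads of cluster 3. They hold 99.2% of its Runx1 reads, 99.8% of its Myb reads, 99.5% of its Spi1 reads, 98.2% of its Coro1a reads, 94.7% of its Hlf reads and 87.9% of its Cd44 reads. Other genes of these lists were less gathered, with 59.8% of Procr, 59.3% of Gata2, 46.9% of Lyl1, 41.9% of Itga2b and 27.7% of Kit reads in the 9 cells. For some genes most reads of the cluster came from 1 cell: 71% of Myb, 57.4% of Gfi1 and 51.3% of Hlf reads. The highest cell gave less of the others, with 43.95% of Spi1, 39.6% of Runx1, 38.4% of Coro1a and 29.9% of Cd44 reads. The deepest cell held 5.67% of all reads of cluster 3. Endothelial genes lay on either side of the 21.4%. The 9 cells hold 17.4% of Cdh5, 15.3% of Pecam1, 5.97% of Kdr, 2.46% of Robo4 and 0.125% of Aplnr reads, but 47.8% of Gja4, 42.9% of Hey1, 30.04% of Gja5, 29% of Sox17, 25.9% of Cd34 and 24.7% of Dll4 reads. A further comparison left out these 9 cells and also the cells at that level in clusters 1 and 2. It set 58 cells against 181 of cluster 1 and 130 of cluster 2. There the median of the transition factors was 0.13 against cluster 1 and -0.05 against cluster 2. That of the hemogenic surface genes was 0.48 and 0.45. That of the pan-hematopoietic genes was -0.59 and -0.65, from 1.05 and 0.49 with all cells. The 9 cells were chosen by Runx1 and Gfi1 themselves, so the levels of these genes without them are low by choice, while the other genes were not used.

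**Figure D3:**
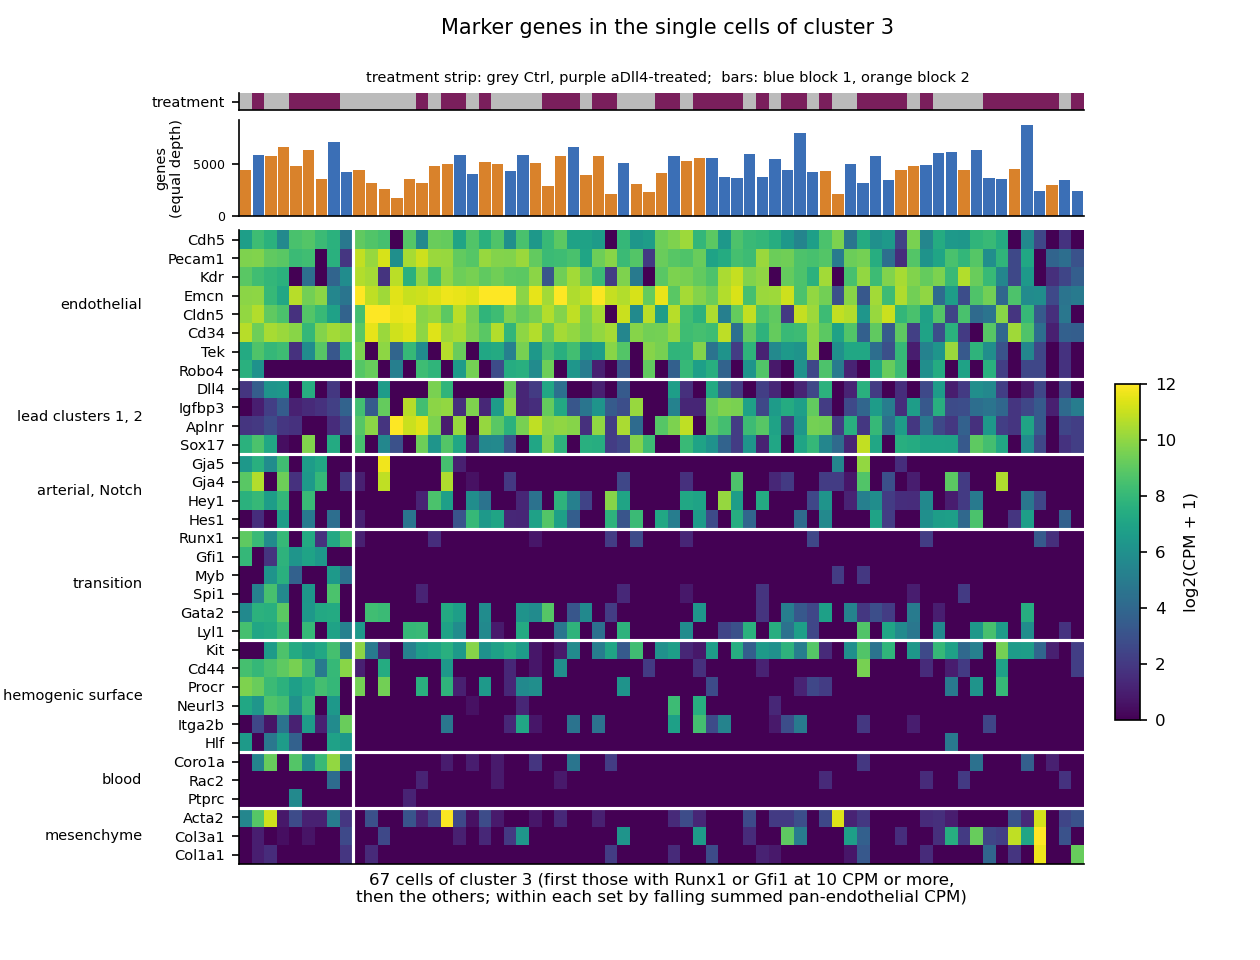
Level of 34 genes as log2(CPM + 1) in each of the 67 cells of cluster 3 (columns), with the 9 cells that have Runx1 or Gfi1 at 10 CPM or more first. The strip gives the treatment (grey Ctrl, purple treated) and the bars the genes per cell at equal depth (blue block 1, orange block 2). Blood transcription factor and surface transcripts are concentrated in the 9 cells, and Igfbp3 and Aplnr are low or absent there.

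The 9 cells were of ordinary complexity on the whole, from 3588 to 7113 genes at equal depth (median 5810), with 2 under the gene limit and none above the mitochondrial limit. They came from both groups (4 Ctrl, 5 treated) and both blocks (3 and 6). Ctrl cell 19 had Runx1 at 265, Gfi1 at 214, Gata2 at 495 and Myb at 198 CPM, with Pecam1 at 494 CPM, 6643 genes and 3.14% mitochondrial reads. Ctrl cell 26 had Runx1 at 515 and Gfi1 at 251 CPM beside Pecam1 at 832 CPM and no read of Myb or Spi1. Ctrl cell 14 had Runx1 at 54.9, Spi1 at 361 and the leukocyte actin regulator Coro1a at 590 CPM, and also the smooth muscle actin Acta2 at 2262 CPM. These cells carried Runx1 and endothelial transcripts side by side, while Myb, Spi1 and Coro1a varied from cell to cell. Ctrl cell 13 had Runx1 at 390, Cd44 at 943 and the integrin Itga2b at 606 CPM with Pecam1 at 2.67 CPM. Treated cell 15 had Runx1 at 153, Spi1 at 392 and Coro1a at 1066 CPM with 7113 genes, and treated cell 24 had Runx1 at 154 and Gfi1 at 125 CPM. Treated cell 11 had Runx1 at 281 CPM, and treated cells 25 and 30 had Gfi1 at 75.3 and 79.7 CPM with Runx1 at 0 and 2.24 CPM. The cell numbers are those the labels give within the cluster.

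The Runx1 cells of cluster 3 stood apart from those of cluster 2 in what they lacked and carried. Aplnr reached 10 CPM in 0 of the 7 Runx1 cells of cluster 3 and in 11 of 15 of cluster 2, and in the other 60 cells of cluster 3 in 37. Spi1, the myeloid and stem cell factor PU.1, was at that level in 5 of 7 against 2 of 15, Myb in 4 of 7 against 0 of 15, and the hyaluronan receptor Cd44 in 7 of 7 against 4 of 15. Cdh5 was present in 7 of 7 and 15 of 15. Cluster 6, in which 26 of the 33 cells had Runx1 at 10 CPM or more, held Cdh5 in 4 of its 26 Runx1 cells, Myb in 20, Spi1 in 18 and the leukocyte GTPase Rac2 in 26, against 1 of 7 in cluster 3. The Runx1 cells of cluster 3 thus had Cdh5 like those of cluster 2 and Spi1 and Cd44 like those of cluster 6, with Rac2 and Vav1 (1 of 7 each) mostly under 10 CPM. Procr, the protein C receptor of early stem cell precursors, was in 6 of 7 against 5 of 15 in cluster 2 and 1 of 26 in cluster 6, and Gfi1 in 3 of 7, 2 of 15 and 0 of 26. With 7 cells, 0 of 7 and 7 of 7 leave wide limits, and the clusters were built from these same cells, so the contrast is not a test.

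**Figure D4:**
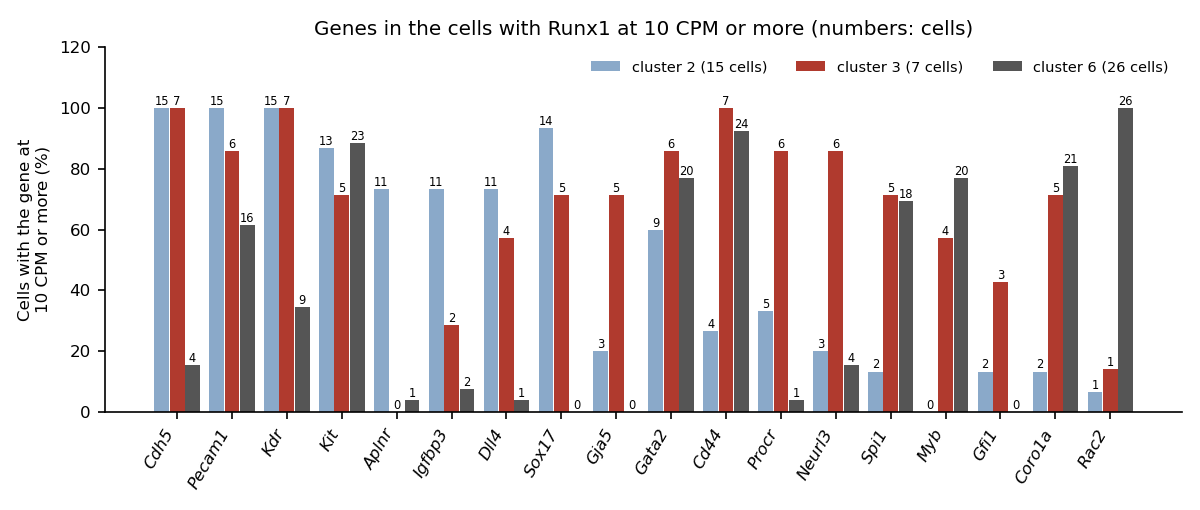
Percentage of the cells with Runx1 at 10 CPM or more in clusters 2 (15 cells), 3 (7 cells) and 6 (26 cells) in which each gene named on the axis is also at 10 CPM or more. In cluster 3 Cdh5 and Cd44 are in all 7 cells, Spi1 in 5, and Aplnr in none.

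Genes were also ranked without regard to these lists, and some that were higher were read in most cells of the cluster. By a rule on the direction of the difference in 5 measures against both clusters, 557 genes (3.74%) qualified as higher and 3540 (23.8%) as lower, and the 12 with the largest differences in mean log2(CPM + 1) were taken each way. Fabp5, a fatty acid binding protein, was at 85.5 CPM (82.97 to 88.1) against 16.3 and 32.02 CPM, and at 10 CPM or more in 48 of 67 cells, against 60 of 183 and 73 of 145. Fkbp3, a nuclear immunophilin, was at 380 CPM against 155 and 193 CPM, and was in nearly every cell of all 3 clusters (63 of 67 at 10 CPM or more). Cd320, the transcobalamin receptor, was at 83.997 CPM against 46.1 and 36.3 CPM. Fabp5 and Fkbp3 were thus at 10 CPM or more in most cells of cluster 3, unlike Runx1. The others were Serf1, Fbn1, Ctnnal1, Cox6c2, Usmg5, Rps27l, Ndufa11b, Pdlim1 and Cd44, of which Fbn1, the microfibril protein fibrillin, was at 81.8 CPM with 21 of 67 cells at 10 CPM or more. Cox6c2, Ndufa11b and Serf1 have close copies in the genome, so their counts are uncertain, and Fkbp3, Usmg5, Fbn1 and Serf1 overlap a gene on the opposite strand.

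Among the 12 lowest genes by the rule were Dll4, Igfbp3, Robo4, Tmem204, N4bp3, Tmem255a, Mcam, Apold1, Dcbld1, Sema6d and Sh3bp5. Of these Dll4, Tmem255a, Mcam and Sh3bp5 overlap a gene on the opposite strand. Mcam, the adhesion molecule CD146, was at 132 CPM (129 to 135) against 582 and 434 CPM, with 39 of 67 cells at 10 CPM or more. Tmem204, an endothelial membrane protein, was at 53.997 CPM against 229 and 206 CPM, and in 17 of 67 cells. Apold1, an endothelial gene, was at 77.01 CPM against 383 and 355 CPM. These genes were high in most cells of clusters 1 and 2 and under 10 CPM in a large part of cluster 3. Short transcripts were slightly favoured: the median log2 ratio to cluster 1 was 0.15 among the protein-coding genes in the shortest tertile of exonic length (median 2355 bases) and -0.15 in the longest (8478 bases), and the 12 higher genes had a median exonic length of 3225 bases against 3709.5 bases of the 12 lower and 4603.5 bases of all. The part of transcript length in the contrast was not tested.

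Ribosome biogenesis, nuclear oxidative phosphorylation and S phase genes were higher in summed CPM in the main, and glycolysis genes were lower. In mean log2(CPM + 1) the higher of these lists had medians below 0 against cluster 2. Over all measured genes the median on this scale was -0.41 against cluster 1 and -0.30 against cluster 2. Of 14 ribosome biogenesis genes all 14 were higher than in cluster 1 (median 1.06, 8 called) and 13 higher than in cluster 2 (median 0.47, none called), in the median of each of the 6 runs. Over all measured genes 7.74% were called higher against cluster 1 and 5.92% against cluster 2. Npm1, the nucleolar chaperone nucleophosmin, was at 1134 CPM (1124 to 1143) against 645 and 777 CPM. Without the Runx1 or Gfi1 cells of the clusters compared, the medians were 0.68 and 0.32. In mean log2(CPM + 1) the list's median difference was 0.20 from cluster 1 and -0.38 from cluster 2. Nuclear genes of oxidative phosphorylation had medians of 0.35 (14 of 16 higher) and 0.22 (12 of 16) in summed CPM and of -0.04 and -0.13 in mean log2(CPM + 1), and mitochondrially encoded genes of 0.31 and 0.17. All 18 S phase genes were higher than in cluster 1 (median 0.60, 3 called) and 13 of 18 higher than in cluster 2 (0.23, none called). The S phase median against cluster 2 was 0.0040 in block 1, 0.07 in block 2 and -0.18 without the Runx1 or Gfi1 cells of both clusters. In mean log2(CPM + 1) it was -0.51. G2 and M phase genes had medians of -0.36 and 0.10. The first was 0.52 when cells of both clusters were kept only within the middle 50% of cluster 3 by gene number (33 against 45 cells). Glycolysis and hypoxia genes were lower (11 of 12 and 9 of 12, medians -0.30 and -0.32): Slc2a1, the glucose transporter, was at 611 CPM against 3282 and 1521 CPM.

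Lists that mark stressed or dying cells had medians below 0 over all cells. Medians against cluster 1 and cluster 2 were -0.17 and -0.33 for p53 targets and apoptosis, -0.35 and -0.50 for immediate early and heat shock genes, and -0.51 and -0.43 for endoplasmic reticulum stress. Housekeeping genes had medians of -0.18 and -0.17 and nuclear-retained long non-coding RNAs of -0.41 and -0.24. Malat1, one of the latter, was at 693 CPM against 747 and 647 CPM.

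Transcripts of other cell types were found in a few cells of cluster 3. All 9 measured mesenchymal and smooth muscle genes were higher than in either cluster (medians 1.82 and 2.76). Of these, 9 and 8 were called higher, beside 7.74% and 5.92% of all measured genes. The median cell, however, had 9.45 CPM of this list in sum. Above 1000 CPM were 6 of 67 cells (8.96%, 3.36 to 18.5%), against 1 in each of clusters 1 and 2. In Ctrl cells 14 and 24 and treated cell 29 this sum was nearly all Acta2 (2262 of 2304, 2736 of 2743 and 3951 of 4114 CPM). Those cells had 5849 to 12731 CPM of pan-endothelial genes. Treated cell 9 had 29577 CPM of these genes, with Lum at 11564 and Col3a1 at 6623 CPM, and 4.83 CPM of Cdh5. It alone gave 78.5% of the Col1a1 and 80.2% of the Dcn reads of the cluster. Ctrl cell 5 had the epithelial keratins Krt18 and Krt8 at 957 and 407 CPM and the gonadal and mesonephric factor Wt1 at 469 CPM. Treated cell 34 had the germ cell genes Pou5f1 and Dppa3 at 842 and 624 CPM and no read of Cdh5. Treated cell 18 had 1403 CPM of the mesenchymal list and 27.8% mitochondrial reads. Treated cell 32 had 2431 CPM of this list, with Col3a1 at 1834 CPM, no read of Cdh5 and 5.15 CPM of Pecam1. It was within both the gene and the mitochondrial limit, with 4564 genes and 8.80% mitochondrial reads, and had 2161 CPM of pan-endothelial genes. Treated cells 9, 18 and 34 and Ctrl cell 5 are the 4 cells with fewer than 1000 CPM over the 16 endothelial genes (101 to 334 CPM). All 4 were under the gene limit, with 2397 to 3486 genes, and 2 were above the mitochondrial limit. Doublets were not called and every cell was used, so a well with more than 1 cell would remain. Without these 4 cells the mesenchymal medians were 1.05 and 1.18.

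Read as hemogenic, transitional or low in quality, the cells divide. A hemogenic pattern, with Runx1 or Gfi1 at 10 CPM or more, was read in 9 cells, and the other 58 cells had 0.377 CPM of Runx1 and no read of Gfi1. Low gene number or a high mitochondrial share was read in 29 cells (43.3%), 2 of them among the 9. All of these 9 cells also had Cdh5 at 10 CPM or more, beside Runx1 or Gfi1. Other blood transcripts were not shared by all of them: Ctrl cell 26 had no read of Myb, Spi1 or Coro1a. How many cells count as transitional depends on the genes asked for: of the other 58 cells, 15 had Gata2 and 25 had Lyl1 at 10 CPM or more, and in cluster 2 Gata2 reached it in 46 and Lyl1 in 61 of the 130 cells without Runx1. Lower endothelial transcripts ran more widely, through 39 cells, 24 of them with enough genes. Neither a hemogenic nor a low-quality description covered the 67 cells.

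Treatment was then compared inside the cluster, where the groups are 31 Ctrl and 36 treated cells. Cluster 3 took 12.97% of Ctrl and 14.8% of treated cells, a difference of 1.78 percentage points (-4.44 to 7.99), with 3.85 points in block 1 (-2.33 to 10.1) and -4.33 in block 2 (-19.3 to 10.8). Gene number at equal depth had nearly equal medians (4494 and 4495.5), and the mitochondrial share was 7.86% in Ctrl and 6.86% in treated cells. In block 1, 6 of 20 treated and 1 of 13 Ctrl cells were above the mitochondrial limit, and in block 2 none of 16 treated and 3 of 18 Ctrl cells were. The sex of the cells also moved with treatment. In block 1, of the treated cells 14 had Y-linked reads and none Xist, against 8 and 4 of the Ctrl cells. In block 2, 14 treated cells had Xist and none Y-linked reads, against 7 and 6 of the Ctrl cells. Treatment and embryo of origin cannot be told apart in these data.

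Dll4 itself, the gene in the name of the treatment, was at 64.96 CPM in the Ctrl group and at 41.1 CPM in the treated (log2 ratio -0.65, and -1.35 and -0.36 in the blocks). It ran from 0 to 760 CPM in Ctrl (median 1.43) and from 0 to 230 CPM in treated cells (median 2.42), so the groups overlapped throughout, and more treated than Ctrl cells reached 10 CPM (11 of 36 against 7 of 31). In mean log2(CPM + 1) the order was the opposite, 2.31 ± 2.94 in Ctrl and 2.49 ± 2.83 in treated cells (SD). The Notch targets had a median of -0.48 that differed by block (0.15 and -1.21). Hes1 had a summed level of 62.4 CPM over Ctrl cells and 44.6 CPM over treated ones, with log2 ratios of -1.52 and 0.35 in the blocks. Hey1 was at 66.8 and 90.9 CPM and was higher in treated cells in both blocks (1.83 and 0.07). Its 2 groups overlapped, from 0 to 389 CPM in Ctrl and from 0 to 1091 CPM in treated cells.

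In summed CPM, Runx1, the transition factors and the hemogenic surface genes gave no direction that both blocks shared. Runx1 reached 10 CPM in 4 of 31 Ctrl and 3 of 36 treated cells, with levels of 44.7 and 30.4 CPM and log2 ratios of 1.59 in block 1 and -1.63 in block 2. Over the transition factors the median was -0.12 (0.53 and -0.52 in the blocks) and over the hemogenic surface genes -0.16 (1.97 and -0.88). In mean log2(CPM + 1) the median differences in the blocks were 0.10 and -0.14 for the transition factors. For the hemogenic surface genes they were 0.68 and 0.12 on this scale, higher in treated cells in both. The pan-hematopoietic genes had medians of 1.32 and 0.005 in summed CPM and 0.28 and -0.09 in mean log2(CPM + 1). Pan-endothelial genes were lower in treated cells in 14 of 16 cases (median -0.45, and -0.31 and -0.45 in the blocks), where 7102 of the 14905 measured genes were lower by any amount. At 2-fold, 3 of the 16 were called lower and none higher, beside 12.3% and 12.4% of all measured genes. In the 6 runs this median was below 0 in 3. Sox17 had a summed level of 101 CPM over Ctrl and 228 CPM over treated cells, with log2 ratios of 1.22 and 1.19 in the blocks, and mean log2(CPM + 1) of 4.96 ± 3.18 and 4.86 ± 3.63, which goes the other way. Kit was at 204 and 94.1 CPM, with 21 of 31 and 25 of 36 cells at 10 CPM or more. Mesenchymal genes had a median of 1.82 (1.84 in block 1 and 0.03 in block 2), and without the 4 cells with fewer than 1000 CPM of endothelial genes this median was 0.34.

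By the same kind of rule, 1738 genes (11.7%) qualified as higher and 1659 (11.1%) as lower in treated cells by the rule, whose values within the blocks are mean log2(CPM + 1), and the 10 largest differences in mean log2(CPM + 1) each way were taken. The 10 higher were Fam129b, Lpcat1, Eid1, Lrrc8c, Hmces, Gins4, Srfbp1, Foxo1, Ubl4a and Saal1, and the 10 lower Fbxo3, Pam, Map1b, Iqcb1, Slc30a9, Asah1, Rnf13, Cyp20a1, Xrn1 and Arl14ep. Eid1, a nuclear inhibitor of differentiation, was at 42.2 CPM in Ctrl (median cell 2.59, highest 503) and 124 CPM in treated cells (median 104, highest 1011), with 11 of 31 and 25 of 36 cells at 10 CPM or more. Foxo1, a forkhead factor of endothelial quiescence, was at 29.1 and 118 CPM, with 10 of 31 and 22 of 36 cells. In both genes most treated cells were above the median Ctrl cell, although the groups overlapped. Srfbp1 was at 5.60 and 53.8 CPM. Hmces, although in the list, had a log2 ratio of summed CPM of -0.999 in block 1. The rule required 1 direction in both blocks, so a shared direction over blocks or runs is no separate support for any of these genes.

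Among the lower genes, Pam, which amidates peptide hormones, had a summed level of 87.6 CPM over Ctrl cells (19 of 31 cells at 10 CPM or more) and 25.2 CPM over treated ones (9 of 36), with log2 ratios of -1.63 and -1.84 in the blocks. Map1b, a microtubule-associated protein, was at 185 and 77.5 CPM (22 of 31 and 16 of 36), and Fbxo3, an F-box protein of ubiquitin ligases, at 187 and 109 CPM (22 of 31 and 14 of 36). The 2 groups of these 3 genes overlapped. Of the genes named higher or lower, Eid1, Fam129b, Foxo1, Hmces, Fbxo3, Rnf13 and Xrn1 overlap genes on the opposite strand. Ubl4a and Pam each overlap a gene on the same strand. As 1 sample stands behind each group, the differences compare these cells and not the treatments.

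**Figure D5:**
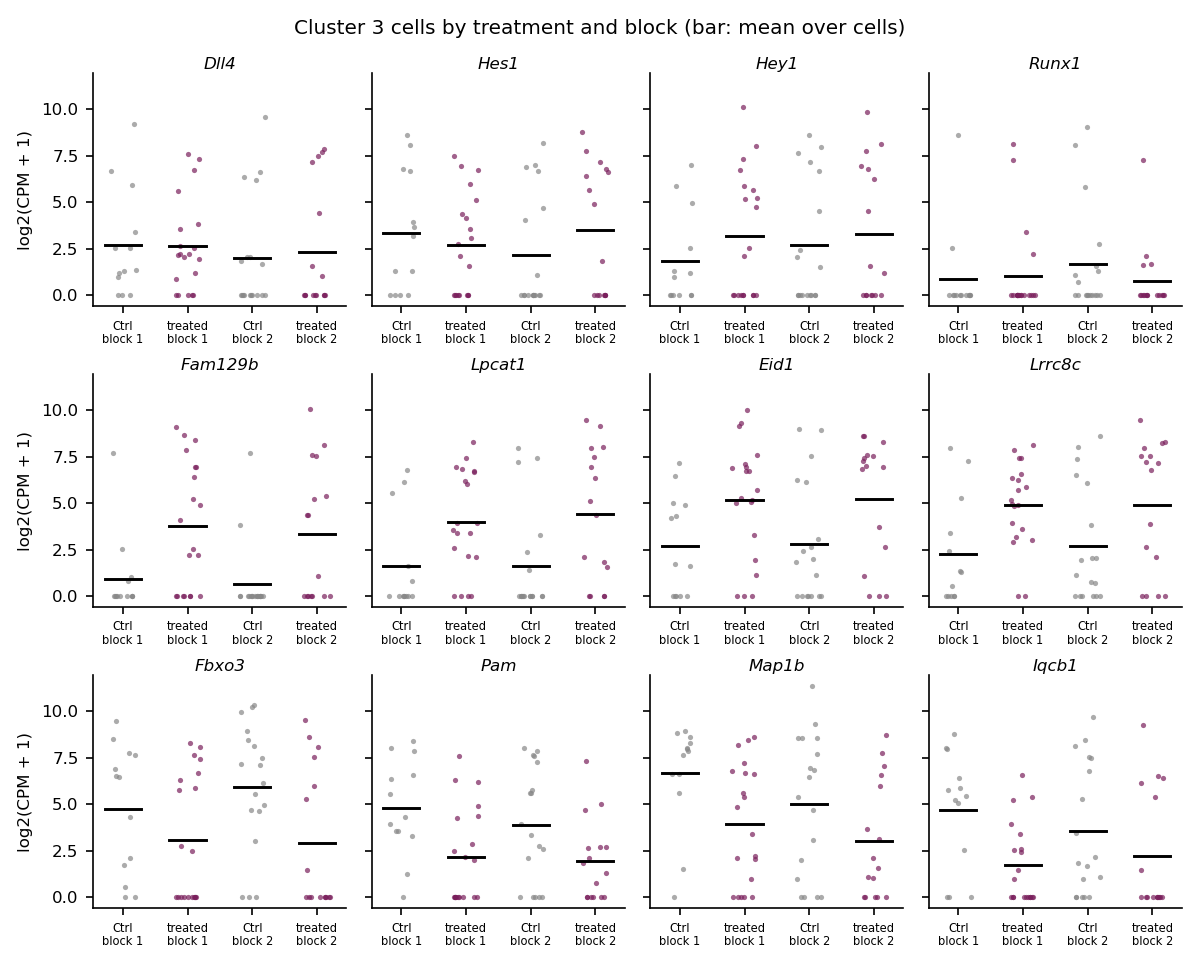
Level as log2(CPM + 1) of 12 genes in each cell of cluster 3, split by treatment and block of library numbers, with a bar at the mean of the cells. Fam129b, Lpcat1, Eid1 and Lrrc8c have more treated cells at high values, Fbxo3, Pam, Map1b and Iqcb1 more Ctrl cells, and Dll4, Hes1, Hey1 and Runx1 overlap widely between the groups.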

How the data were processed

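The deposited table holds whole-number read counts per gene and cell, not normalised, as made by the authors. Per the submitters' processing notes, reads were aligned to mm10 with GSNAP and counted with HTSeq 0.6.0. For the annotation release, counting settings and any cell filter: not given in the sources used here. Symbols came from GENCODE M21 (45229 of 46078 identifiers matched, 849 did not). Columns of no sample numbered 0.

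From these counts, levels were computed as CPM (summed counts per 1000000 summed counts), with log2 ratios after adding 1 CPM, and as the mean of log2(CPM + 1) over cells. Measured genes were those detected in 5% or more of all cells in clusters 1 to 3. A gene was called at a 2-fold difference. Intervals are Clopper-Pearson for shares, Newcombe for differences of shares and Poisson for levels, at 95%. Work was done in Python 3.11.15 with NumPy 2.4.6, pandas 2.3.3, SciPy 1.17.1 and Matplotlib 3.10.9, and in R 4.3.3 with edgeR 4.0.16 (TMM) and DESeq2 1.42.0 (size factors) as scaling alternatives only. No count test was fitted, since each treatment is 1 sample. The scripts were tested on simulated data drawn from the counts.

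Named genes had to be detected in 20% or more of either group's cells and to differ in 1 direction by summed CPM, mean log2(CPM + 1), the same after thinning, and mean log2(CPM + 1) within each of both blocks. Predicted, mitochondrial, Y-linked and Xist genes were left out. The 12 highest and 12 lowest (clusters) or 10 and 10 (treatment) were named, with up to 4 members of each list by level and a fixed set of marker genes; 1 of the 12 lowest is not reported here. The 9 cells with Runx1 or Gfi1, the cells with markers of other types and the genes shown in the single cells were chosen after their values were seen. The members and the 31 gene lists were chosen with earlier results of these data known. Alternatives that leave out the Runx1 or Gfi1 cells, the cells with low endothelial transcripts or cells over 20% mitochondrial were chosen after seeing the data. They leave such cells out on both sides of a comparison.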

Additional observations from a re-analysis of the deposited data

How the results depend on the processing

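No paired analysis was possible because the values come from no test and the labels give no number that pairs cells. Depth limits what single cells show: a gene at a few CPM is unread in the shallowest cells by counting alone. With 67 cells, shares have intervals of over 10 percentage points.

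Both counts of called genes and some list medians moved with the settings. The middle 50% setting kept only cells with 3607 to 5764 genes at equal depth, the middle 50% of cluster 3, in both clusters compared. It left 33 cells of cluster 3, 45 of cluster 1 and 57 of cluster 2. Higher than cluster 1 were 584 genes with 5 CPM added, 1752 without a filter on low genes and 655 with reads in 20% of cells, from 1153. Without the highest cell of each gene they were 764, in block 2 alone 2009 and in the middle 50% setting 2424. Lower than cluster 1 were 972, 1172 (20% of cells) and 2917 (middle 50%), from 1878. Higher than cluster 2 were 360, 1483, 372, 506, 1621 and 1620 in the order of the first list, from 882. Lower than cluster 2 were 526 with 5 CPM added, 736 (20% of cells), 1945 without the highest cell, 2077 in block 1, 1975 in block 2, 2094 in Ctrl cells and 2401 (middle 50%), from 1286. Higher in treated cells were 1014 with 5 CPM added, 1077 (20% of cells), 2835 in block 1, 4059 among Y-positive cells of block 1 and 3998 among Xist-positive cells of block 2, from 1850, and lower were 1143 with 5 CPM added and 1183 (20% of cells), from 1833. Fewer genes or cells enter several of these; otherwise the cause was not tested.

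The median of transition factors against cluster 1 was 0.21 with the middle 50% of cells and 0.13 without the Runx1 or Gfi1 cells, and that of pan-hematopoietic genes was -0.21 and -0.59. Erythroid genes against cluster 1 were at -0.42 in block 1. Gfi1 was at -0.0083 against cluster 1 without the Runx1 or Gfi1 cells, and against cluster 2 at -0.16 without them and -0.56 in block 1. Runx1 against cluster 2 was at -0.55 with the middle 50%. In the treatment contrast Igfbp3 was at 2.28 and Lpcat1 at -0.078 among Xist-positive cells of block 2, Hmces at -0.999 in block 1 and -1.98 and Xrn1 at 0.57 among Y-positive cells of block 1, and Ptprc at -0.065 without the Runx1 or Gfi1 cells. With 5 reads for detection a cluster 3 cell had a median of 3001 genes, and the cluster's share was 9.32% in block 1 and 26.4% in block 2. Pan-endothelial medians stayed below 0 under every setting tried, from -1.22 to -0.67 against cluster 1, -0.83 to -0.45 against cluster 2 and -0.50 to -0.29 between treatments.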
